A study of Mus musculus with 4 samples.

Results

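The TGF-beta feedback and direct target genes examined here are Skil, Ski, Tgif1, Klf10, Pmepa1, Ldlrad4, Bambi, Tgfbi and Tgfb1i1. They were chosen by name, and every probe set paired with exactly 1 of these 9 symbols was taken, which gave 19 of the 45101 probe sets on the array. Aortas came from mice aged 6 weeks with a knockout of Smad4 specific to smooth muscle cells (Smad4-KO) and from their wild-type littermates (WT). Each genotype had 2 Affymetrix arrays, called replicate 1 and replicate 2, and for each array the RNA of 3 to 5 vessels was pooled and 400 ng used. The promoter that drives the deletion is not given in the sources used here, and the arrays read the whole vessel, so all cell types of the aorta add to a signal. No other treatment is labelled for either genotype.

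TGF-beta binds a pair of serine/threonine kinase receptors, which phosphorylate Smad2 and Smad3. These join Smad4, enter the nucleus and switch target genes on or off. Many of the targets act back on the pathway: Ski and SnoN (the product of Skil) repress Smad complexes in the nucleus, and membrane proteins such as the products of Pmepa1, Ldlrad4 and Bambi act on the receptors or keep Smads away from them. In arteries the pathway is known for holding smooth muscle cells in a contractile state and for its part in aneurysm.

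Values are probe set signals on a linear scale in arbitrary units, and levels of different probe sets are not compared with each other. Differences are on the log2 scale, Smad4-KO minus WT, from limma, with the standard error after ± (2 against 2 arrays). A gene is represented by its brightest probe set, and a change is called at an adjusted p under 0.05 over all 13645 genes tested. In the gene fit 6.31% of the genes were called, 4.92% as higher and 1.39% as lower. A second fit took each of 26209 probe sets by itself and called 0.782% of them. Precision is limited by the number of arrays. In simulated data with 50 genes changed at each size, 0% of log2 changes of 1 and 2% of changes of 2 were recovered. The simulated data gave 74 calls, against 861 in the gene fit here, and the adjusted p depends on how many genes change. These shares are thus a rough guide to a fit of so few arrays. A gene that was not called is therefore not shown to be unchanged.

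Several measures set the arrays apart. Smad4 itself had 3 probe sets, and the brightest gave 4394 and 3819 in the WT pools and 2676 and 3580 in the Smad4-KO pools. Both Smad4-KO arrays were lower than both WT arrays, as for 21.4% of all genes tested. The difference was -0.40 ± 0.32 on the log2 scale (adjusted p = 0.626 in limma), which is within the spread between the Smad4-KO replicates. The deleted stretch is not named in the labels. Summed signals of 10 smooth muscle markers were 138310 and 164840 in WT against 60743 and 69724 in Smad4-KO. All 10 markers were lower on both Smad4-KO arrays, beside 21.4% of all genes tested. Cnn1, Lmod1, Ppp1r14a, Smtn and Synpo2 passed the test, and 0 of the 10 passed in limma when either WT array was left out. Summed signals of 12 macrophage markers were 17985 and 12118 in WT against 74914 and 104710 in Smad4-KO, with Adgre1, C1qa, Cd68, Ctss, Fcgr1, Lyz2, Ptprc and Trem2 called higher. Of these 12, 3 passed without WT replicate 1 and 0 without WT replicate 2. The 12 nerve cell markers (Dbh, Gap43, Nefl, Nefm, Prph, Rtn1, Snap25, Stmn2, Syt1, Th, Tubb3 and Uchl1) were all called higher (10 of 12 without WT replicate 1 and 0 without WT replicate 2), with sums of 2350 and 1949 in WT against 47401 and 36537 in Smad4-KO. No marker was listed at 0 on any array, and the dimmest in WT was Trem2 at 5.86 and 6.80. Of 8 endothelial, 7 fibroblast, 6 adipocyte and 2 lymphocyte markers tested, 0 passed in limma, beside 6.31% of all genes. The unadjusted p was under 0.05 for 1 endothelial (Kdr), 0 fibroblast, 1 adipocyte (Ucp1) and 1 lymphocyte gene (Cd3g), beside 2634 of all 13645 genes. Ucp1 was lower on both Smad4-KO arrays (9417 and 1170 in WT, 773 and 69.9 in Smad4-KO). Its log2 difference was -3.84 ± 1.42 (adjusted p = 0.222 in limma). Of the 6 adipocyte markers, 3 had negative and 3 positive differences, and 5 overlapped. Cd3e and Cd79a, the other lymphocyte markers on the array, lay under the filter. The sums spanned 10956 to 11812 in WT and 7259 to 14410 in Smad4-KO for endothelium, 94289 to 95700 and 79813 to 120350 for fibroblasts, and 161 to 369 and 647 to 1725 for lymphocytes. Adipocyte sums split the arrays by replicate number: replicate 1 had 42382 in WT and 37038 in Smad4-KO, and replicate 2 had 11627 and 8468. Xist, made by the inactive X chromosome, split them in the same way (15190 and 6223 against 90.0 and 135). The 3' to 5' signal ratio of the Dap labelling control split them otherwise, being high on WT replicate 1 (10.02) and Smad4-KO replicate 2 (14.1) and low on the remaining pair (2.96 and 3.62). The same ratio for beta-actin split the arrays as Dap did (11.4 and 12.8 against 4.19 and 2.83). The part of these measures in the differences below was not tested. In whole tissue, fewer cells of a type and less RNA per cell cannot be told apart.

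Among the 9 genes, 1 passed the test: Tgfb1i1, which was lower in the Smad4-KO aortas. That is 11.1% of them, beside 6.31% of all genes tested. In limma 4 of the 9 had an unadjusted p under 0.05, beside 2634 of all 13645 genes tested. For 4 genes the Smad4-KO arrays were both lower than either WT array (Ski, Ldlrad4, Bambi and Tgfb1i1), for 2 they were both higher (Klf10 and Tgif1), while Skil, Pmepa1 and Tgfbi overlapped. Over all genes tested, 21.4% lay below, 25.9% above and 47.3% did not overlap in either direction, so 6 of 9 (66.7%) is a share to be read beside a high background. The median log2 difference of the 9 genes was -0.49, against -0.01 over all genes tested, and their differences ran from -1.48 to 1.72. With arrays centred on their medians, the median of all genes was -0.16, and the directions of the 9 genes stayed as they were.

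**Figure D1:**
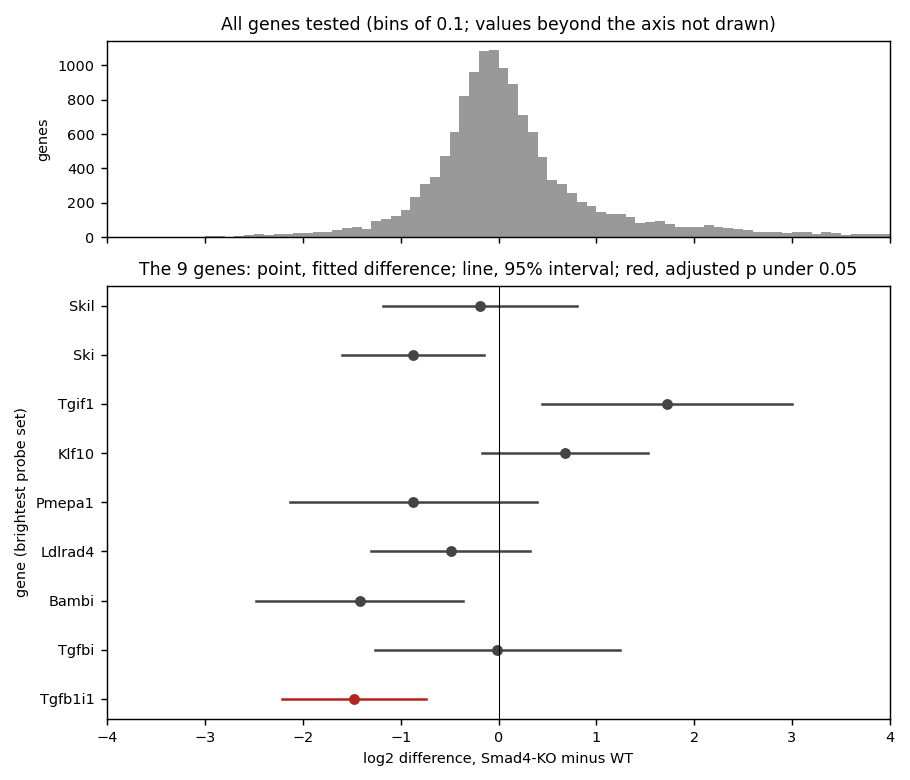
The upper panel is a histogram of the log2 difference (Smad4-KO minus WT, horizontal axis) over the 13645 genes tested, with the number of genes on the vertical axis. The lower panel gives each of the 9 genes by its brightest probe set, with the fitted difference as a point and its 95% interval as a line. Tgfb1i1, in red, is the gene whose adjusted p lies under 0.05. The intervals of Ski, Bambi and Tgif1 also exclude 0 but these genes did not pass after adjustment.

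Of the 19 probe sets, 18 passed the filter on low signal in the probe set fit and 0 were called (limma, lowest adjusted p = 0.0998). The unadjusted p was under 0.05 for 5 of the 18, beside 3692 of all 26209 probe sets tested. Groups did not overlap for 10 of the 18, 7 lower and 3 higher in Smad4-KO, where 42.2% of all probe sets tested did not overlap. The Smad4-KO replicates differed from each other by more than the genotypes did for 10 of the 19. Over the 18, the median size of the log2 difference was 0.61 between the Smad4-KO replicates, 0.42 between the WT replicates and 0.77 between the genotypes.

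**Figure D2:**
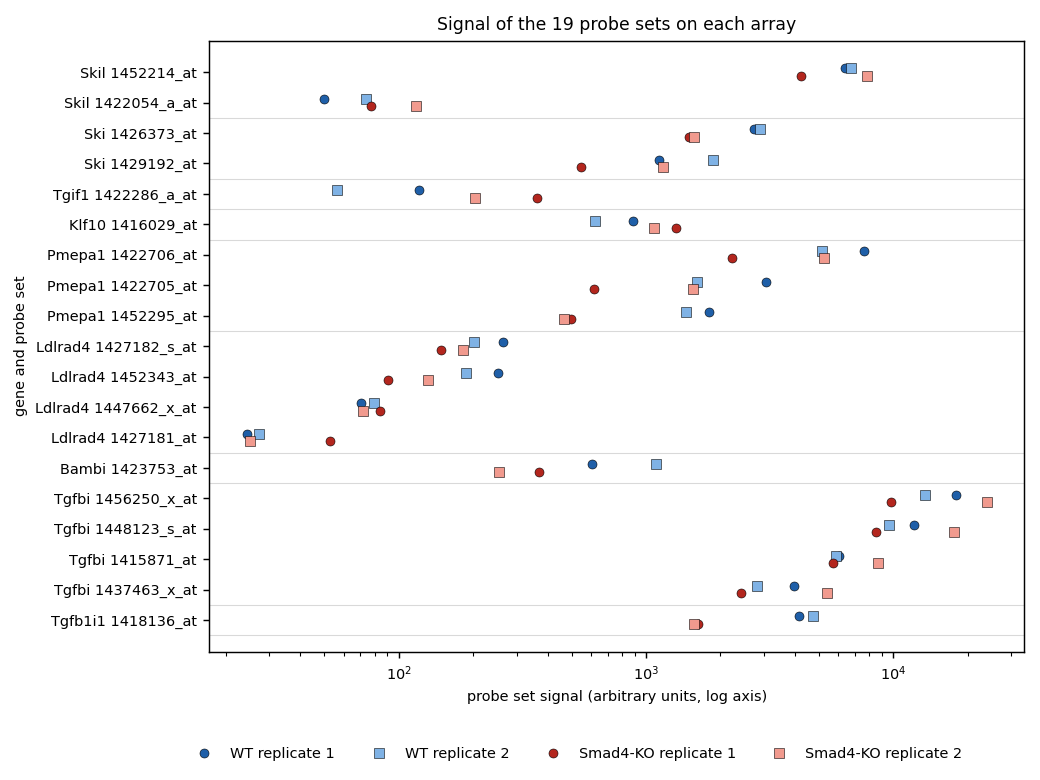
Signal of each of the 19 probe sets (arbitrary units, log axis) on the 4 arrays, 1 row per probe set, grouped by gene. WT arrays are blue and Smad4-KO arrays red, with circles for replicate 1 and squares for replicate 2. The colours separate widely for Tgfb1i1 and for the dimmest Pmepa1 probe set, and interleave in all 4 Tgfbi probe sets.

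Promoter sequence from RefSeq (build GRCm38.p6) was at hand for 3 of the 9 genes, Ski, Tgfbi and Tgif1. It is shown because these genes differ in how they behaved. By the brightest probe set, Ski was lower on both Smad4-KO arrays, Tgif1 higher, and Tgfbi overlapped. The dimmer Ski probe set overlapped too. Each run holds the 250 bases before the annotated start, 5′ to 3′ on the strand of the gene. Capitals mark CAGAC (or GTCTG on the other strand) and GGCGC (or GCGCC), short motifs known to be bound by the DNA-binding domain of Smad3 and Smad4. Tgif1 has 5 annotated starts, of which the one farthest upstream is shown. The regions are chr4:155222536-155222785 (minus strand), chr13:56609336-56609585 (plus strand) and chr17:70853533-70853782 (minus strand).
Ski: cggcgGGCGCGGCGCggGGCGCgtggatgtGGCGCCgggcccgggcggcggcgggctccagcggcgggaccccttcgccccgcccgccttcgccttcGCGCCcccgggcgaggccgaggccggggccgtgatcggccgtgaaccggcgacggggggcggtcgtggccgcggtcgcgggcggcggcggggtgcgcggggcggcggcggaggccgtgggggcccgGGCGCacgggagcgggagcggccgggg
Tgfbi: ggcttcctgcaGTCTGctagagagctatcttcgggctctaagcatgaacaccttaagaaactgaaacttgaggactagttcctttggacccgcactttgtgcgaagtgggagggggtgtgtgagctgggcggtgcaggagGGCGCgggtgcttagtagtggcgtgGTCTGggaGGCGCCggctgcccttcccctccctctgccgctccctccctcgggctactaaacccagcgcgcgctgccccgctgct
Tgif1: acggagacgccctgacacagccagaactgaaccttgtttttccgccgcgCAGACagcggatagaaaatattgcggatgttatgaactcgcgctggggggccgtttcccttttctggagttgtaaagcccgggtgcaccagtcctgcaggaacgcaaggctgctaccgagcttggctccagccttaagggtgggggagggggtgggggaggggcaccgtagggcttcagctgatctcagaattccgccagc
The Ski promoter held 7 matches of GGCGC and 0 of CAGAC, and G and C made up 87.6% of its bases. The Tgfbi promoter held 3 of GGCGC and 2 of CAGAC (62.4% G and C). The Tgif1 promoter shown held 0 of GGCGC and 1 of CAGAC (59.6% G and C). Counts before the other Tgif1 starts differed, with 0 or 1 of GGCGC and 0 to 2 of CAGAC. The start used in these aortas is not known. Matches of 1 motif may overlap each other and its reverse complement. Of 32851 promoter windows of this length, 42.2% held CAGAC and 32% held GGCGC on either strand, so such matches are frequent. A match of letters is no evidence of binding in these aortas.

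The nuclear regulators come first, with Ski, a corepressor that binds Smad complexes and recruits histone deacetylases. Its brighter probe set (1426373_at) read 2734 and 2899 in the WT pools and 1496 and 1571 in the Smad4-KO pools. The replicates of each genotype lay close together and the genotypes did not overlap. The log2 difference was -0.88 ± 0.29 (95% interval -1.60 to -0.15), a level 1.84-fold lower that did not pass (adjusted p = 0.177). The 4 pairs of 1 Smad4-KO and 1 WT array gave -0.95 to -0.80. The dimmer Ski probe set (1429192_at) read 1125 and 1868 in the WT pools and 548 and 1175 in the Smad4-KO pools, a log2 difference of -0.85 ± 0.53 with overlap between Smad4-KO replicate 2 and WT replicate 1 (adjusted p = 0.613 in the probe set fit). For that probe set the pair of high labelling ratio (WT replicate 1 and Smad4-KO replicate 2) differed by 0.06 and the pair of low ratio by -1.77.

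Skil encodes SnoN, the close relative of Ski, which TGF-beta first removes by degradation and then induces as a transcript. Its brighter probe set (1452214_at) read 6359 and 6769 in the WT pools and 4219 and 7823 in the Smad4-KO pools. The Smad4-KO arrays lay on either side of the WT arrays, and the difference was -0.19 ± 0.40 (95% interval -1.18 to 0.80, adjusted p = 0.883). Without Smad4-KO replicate 1 it turned to 0.25, and without Smad4-KO replicate 2 it was -0.64. The dimmer probe set (1422054_a_at) read 50.1 and 73.4 in the WT pools and 77.2 and 117 in the Smad4-KO pools, higher on both Smad4-KO arrays, with a difference of 0.65 ± 0.41 (adjusted p = 0.627 in the probe set fit). The pair of Skil probe sets therefore differed in sign.

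Tgif1, a homeodomain corepressor that binds Smad2 and Smad3, had 1 probe set (1422286_a_at), with signals of 121 and 56.1 in the WT pools and 364 and 203 in the Smad4-KO pools. Both Smad4-KO arrays were above both WT arrays. The log2 difference was 1.72 ± 0.51 (95% interval 0.45 to 3.00), a level 3.30-fold higher that did not pass (adjusted p = 0.135). It was 0.75 between WT replicate 1 and Smad4-KO replicate 2, which share high labelling ratios, and 2.70 between the other two. Within replicate numbers it was 1.59 and 1.86. Macrophage and nerve cell markers were higher on the same arrays. Over 1364 genes of like signal, the replicates differed with an SD of 0.67 in WT and 1.06 in Smad4-KO on the log2 scale, against 0.674 and 0.882 over all genes tested.

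Klf10, a zinc finger factor induced early by TGF-beta that represses Smad7 in cell models, read 888 and 623 in the WT pools and 1319 and 1074 in the Smad4-KO pools. The Smad4-KO arrays were both higher, by 0.68 ± 0.34 (95% interval -0.17 to 1.53), a 1.60-fold level that did not pass (adjusted p = 0.38). The lowest pair difference was 0.27 and the highest 1.08. The nuclear regulators thus divided. Ski was lower on both Smad4-KO arrays by its brighter probe set, while its dimmer probe set had a negative difference with overlap. Tgif1 and Klf10 were higher on both, and Skil had no settled sign. Of these 4 genes, 0 were past the threshold in limma (unadjusted p under 0.05 for Ski and Tgif1).

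Pmepa1 encodes a membrane protein that TGF-beta induces and that keeps Smad2 and Smad3 from the receptor. Its 3 probe sets did not behave alike. The brightest (1422706_at) read 7610 and 5150 in the WT pools and 2220 and 5270 in the Smad4-KO pools, so Smad4-KO replicate 2 lay among the WT values while replicate 1 was far below. The difference was -0.87 ± 0.50 (95% interval -2.14 to 0.39, adjusted p = 0.46), and it was -0.25 without Smad4-KO replicate 1 and -1.50 without Smad4-KO replicate 2. The next (1422705_at) read 3066 and 1604 in the WT pools and 618 and 1552 in the Smad4-KO pools, with the groups apart by a small margin and a difference of -1.18 ± 0.61. The dimmest (1452295_at) read 1802 and 1453 in the WT pools and 499 and 467 in the Smad4-KO pools. There the Smad4-KO arrays were close together and both far below WT: the difference was -1.74 ± 0.34 (95% interval -2.61 to -0.88), a level 3.35-fold lower, which lay between -1.95 and -1.54 in the 4 pairs. It did not pass in the probe set fit (adjusted p = 0.0998) and had the lowest adjusted p of the 19 probe sets there. The annotation used here does not say which part or isoform of the transcript each probe set reads.

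**Figure D3:**
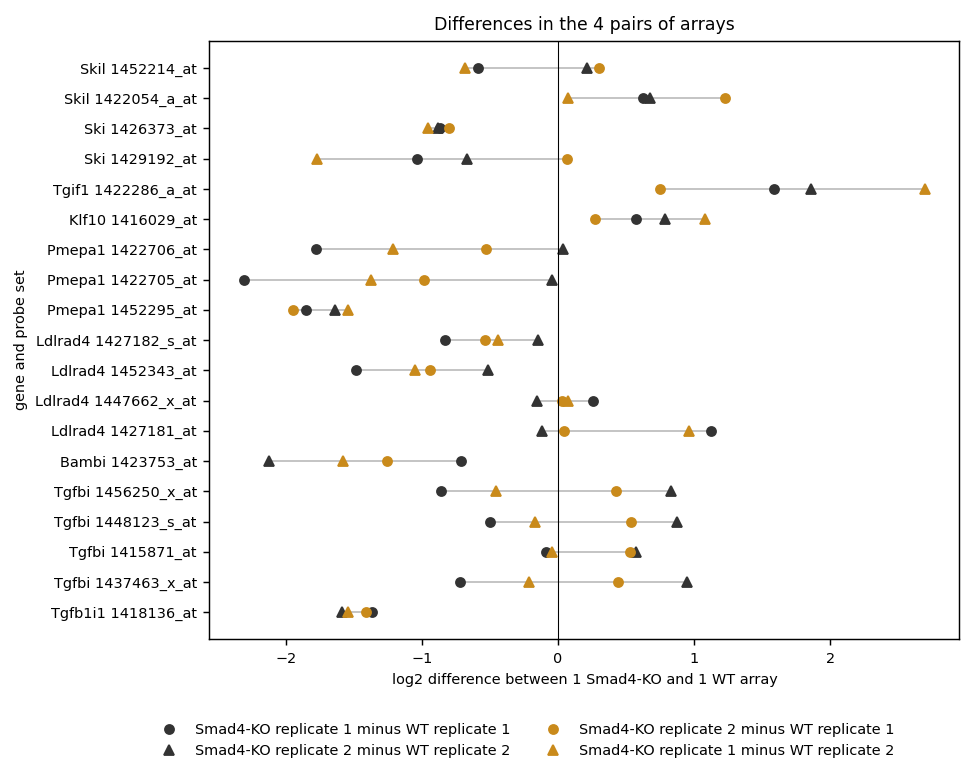
Log2 difference between 1 Smad4-KO and 1 WT array (horizontal axis) for each of the 19 probe sets (rows), in all 4 pairs of arrays. Black points pair arrays of the same replicate number and orange points arrays of unlike number. The 4 points lie close together for Tgfb1i1 (-1.59 to -1.37), Ski 1426373_at and Pmepa1 1452295_at, and fall on both sides of 0 for all 4 Tgfbi probe sets.

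Ldlrad4 is a relative of Pmepa1 in the membrane that likewise binds Smad2 and Smad3. All 4 of its probe sets were dim. The brightest (1427182_s_at) read 264 and 201 in the WT pools and 148 and 182 in the Smad4-KO pools, lower on both Smad4-KO arrays by 0.49 (a log2 difference of -0.49 ± 0.32, adjusted p = 0.535). Another (1452343_at) read 253 and 188 in the WT pools and 90.6 and 131 in the Smad4-KO pools, or -1.0 ± 0.39 on the log2 scale, which was not called (adjusted p = 0.358 in the probe set fit). The probe set 1447662_x_at overlapped at 70.4 to 84.0 on all arrays (0.05 ± 0.33), and 1427181_at lay below the filter, at 24.2 and 27.1 in the WT pools and 52.7 and 25 in the Smad4-KO pools, and was not tested.

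Bambi encodes a receptor-like membrane protein without a kinase, which dampens TGF-beta and BMP signalling and is a target of both. Its 1 probe set (1423753_at) read 604 and 1102 in the WT pools and 369 and 253 in the Smad4-KO pools. The genotypes did not overlap, with lower values in Smad4-KO. On the log2 scale they differed by -1.42 ± 0.42 (95% interval -2.48 to -0.36), a level 2.67-fold lower. It did not pass (adjusted p = 0.138), and its adjusted p over 15 alternatives ran from 0.0945 to 0.52. The difference was -0.71 between the arrays numbered 1 and -2.12 between those numbered 2. Between arrays of like labelling ratio it was -1.25 and -1.58. By the brightest probe set, Pmepa1, Ldlrad4 and Bambi all had negative differences, with 0 of 3 past the threshold in limma (unadjusted p under 0.05 for Bambi).

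Tgfbi, a matrix protein that binds integrins and collagens and is named for its induction by TGF-beta, showed no difference between the genotypes larger than the spread between replicates. Its brightest probe set (1456250_x_at) read 17902 and 13499 in the WT pools and 9841 and 24042 in the Smad4-KO pools, with a difference of -0.02 ± 0.50 (95% interval -1.27 to 1.24, adjusted p = 0.993). In all 4 Tgfbi probe sets Smad4-KO replicate 2 was the highest of the arrays and Smad4-KO replicate 1 the lowest. The other three had differences of 0.18 ± 0.47, 0.24 ± 0.38 and 0.11 ± 0.52, none past the threshold (adjusted p = 0.938, 0.888 and 0.967 in the probe set fit). The sign of the brightest turned with quantile normalization (0.05) and cyclic loess (0.17), and the interval leaves room for a change of over 1 on the log2 scale in either direction. Between the Smad4-KO replicates it differed by 1.29. These arrays also differed in Xist signal, labelling ratio, adipocyte sum (37038 and 8468) and macrophage sum (74914 and 104710), whose part was not tested.

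Tgfb1i1 encodes Hic-5, a focal adhesion protein of the paxillin family with LIM domains, which is also a nuclear coactivator and is abundant in smooth muscle. Its 1 probe set (1418136_at) read 4178 and 4720 in the WT pools and 1621 and 1567 in the Smad4-KO pools. The replicates of each genotype lay close together, and the genotypes were far apart. It fell 2.79-fold (log2 difference -1.48 ± 0.29, 95% interval -2.21 to -0.74, adjusted p = 0.0494 in limma), and 2.62% of the genes tested had a difference as low or lower. The pair differences lay between -1.59 and -1.37. The call sits at the threshold: over 15 alternatives the difference kept its direction, from -1.63 to -1.38, but it passed under 5 (adjusted p from 0.0276 to 0.269). It was lost when any 1 array was left out, with adjusted p = 0.178 without WT replicate 1, 0.269 without WT replicate 2, 0.102 without Smad4-KO replicate 1 and 0.108 without Smad4-KO replicate 2. In the probe set fit it did not pass (adjusted p = 0.129). Smooth muscle markers were lower on the same arrays (median log2 difference of 10 markers -2.38), and the part of that in the fall of Tgfb1i1 was not tested.

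The 3 genes whose values over the 4 arrays lay closest to those of Tgfb1i1, by the root mean square distance of log2 values centred on each gene's mean, were Nipal2, Ntn1 and Actg2. Nipal2 (distance 0.0499) read 660 and 677 in the WT pools and 246 and 240 in the Smad4-KO pools. Ntn1, the secreted guidance protein netrin-1 (distance 0.0654), read 3552 and 4008 against 1258 and 1373. Actg2, the gamma actin of visceral smooth muscle (distance 0.0678), read 4087 and 4363 against 1426 and 1550. Their differences were -1.46 ± 0.29, -1.52 ± 0.30 and -1.51 ± 0.29 (adjusted p = 0.0486, 0.0471 and 0.0469). Since they were picked for values near those of Tgfb1i1, their like differences and p-values are a description.

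Partners of Hic-5 at focal adhesions were looked at next, in a list that also holds the transcription factor Srf and its coactivator Myocd. Of its 7 genes tested, 0 fell and 1 rose in limma, where 6.31% of all genes were called. The unadjusted p was under 0.05 for 5 of the 7, beside 2634 of all 13645 genes. Both Smad4-KO arrays were lower for 5, Srf and Myocd among them, beside 21.4% of all genes. The median difference was -1.16, which is the value of Srf. Zyx (zyxin) read 4277 and 4706 in the WT pools and 1219 and 1951 in the Smad4-KO pools (-1.54 ± 0.36, adjusted p = 0.0743). Vcl (vinculin) read 19084 and 22622 against 8830 and 8815 (-1.24 ± 0.30, adjusted p = 0.0812). Srf, which drives actin and muscle genes, had -1.16 ± 0.31 (adjusted p = 0.103), Tln1 (talin) -0.70 ± 0.29 (adjusted p = 0.281) and Myocd (myocardin, also among the smooth muscle markers) -2.42 ± 0.91 (adjusted p = 0.2295). Zyx, Vcl, Srf, Tln1 and Myocd are named after their values were seen. Ptk2b, the kinase Pyk2 that Hic-5 binds, rose 6.12-fold, from 67.0 and 97.7 to 380 and 646 (2.61 ± 0.40, adjusted p = 0.0271), a call lost without WT replicate 1 (adjusted p = 0.112) or WT replicate 2 (adjusted p = 0.0994) and with the mean of its probe sets (1.20, adjusted p = 0.317). Ptk2b is also expressed by white blood cells, whose marker Ptprc rose on the same arrays. The part of these cells in the rise of Ptk2b was not tested.

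Of 6 relatives of the 9 genes tested, 1 rose, where 6.31% of all genes were called: Lpxn (leupaxin), the member of the paxillin family found in white blood cells, read 144 and 118 in the WT pools and 1380 and 2532 in the Smad4-KO pools (3.84 ± 0.40, 14.3-fold, adjusted p = 0.0136). Without WT replicate 2 it did not pass (adjusted p = 0.0719). Macrophage markers rose on the same arrays, with a median log2 difference of 2.62 over 12, and their part in the rise of Lpxn was not tested. Pxn (paxillin) overlapped between the genotypes (0.50 ± 0.40, adjusted p = 0.625). So within this family Tgfb1i1 was lower, Lpxn higher and Pxn not settled. Klf11, the relative of Klf10, had 0.39 ± 0.33 and Tgif2, the relative of Tgif1, -0.36 ± 0.36, neither past the threshold (adjusted p = 0.645 and 0.717). Pxn, Klf11 and Tgif2 are named after their values were seen.

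Partners and ubiquitin ligases of Ski and SnoN gave 0 calls among 6 genes tested in limma, where 6.31% of all genes were called. None had an unadjusted p under 0.05, and the median was -0.26. The lowest p-values were those of Smurf2, a ligase that marks SnoN and receptors for degradation (2219 and 3032 in WT, 2137 and 1101 in Smad4-KO, -0.76 ± 0.43, adjusted p = 0.451), and Fzr1, an activator of the anaphase-promoting complex (-0.33 ± 0.31, adjusted p = 0.698). The ligands, receptors and Smads of the pathway gave 0 calls among 12 in limma (0 with an unadjusted p under 0.05, median -0.14). Beside a share of 6.31% over all genes, 0 calls in lists of this size do not show that they were unchanged. Tgfb1 was higher on both Smad4-KO arrays (0.66 ± 0.31, adjusted p = 0.335), and Tgfb2 overlapped (-1.37 ± 0.74, adjusted p = 0.427).

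Other known targets of TGF-beta changed in both directions. Of 22 tested, 1 rose and 2 fell, 13.6% in all beside 6.31% of all genes. In limma 6 of the 22 had an unadjusted p under 0.05, beside 2634 of all 13645 genes. Both Smad4-KO arrays were higher for 9 and lower for 4, beside 25.9% and 21.4% of all genes. The median difference was 0.26, against -0.01 over all genes. Lmcd1, a LIM domain cofactor of muscle, fell from 4979 and 5889 to 1118 and 428 (-2.97 ± 0.51, 7.83-fold, adjusted p = 0.0353). Fstl3, a secreted activin antagonist, fell from 1437 and 1759 to 319 and 250 (-2.49 ± 0.32, 5.63-fold, adjusted p = 0.0189). Thbs1, a matricellular protein that activates latent TGF-beta, rose from 304 and 689 to 5099 and 2319 (2.91 ± 0.57, 7.52-fold, adjusted p = 0.0482). Fstl3 and Lmcd1 did not pass with WT replicate 1 left out (adjusted p = 0.0697 and 0.11) or with WT replicate 2 left out (0.11 and 0.167). Thbs1 did not pass with WT replicate 1, WT replicate 2 or Smad4-KO replicate 1 left out (adjusted p = 0.16, 0.0968 and 0.0931). Smad7, the inhibitory Smad that is the best known feedback target, read 435 and 574 in the WT pools and 289 and 384 in the Smad4-KO pools, lower on both arrays but not past the threshold (-0.59 ± 0.34, adjusted p = 0.456). The collagen genes Col1a1, Col1a2 and Col3a1 overlapped, with differences from -0.16 to 0.16. Nox4 (-1.97 ± 0.44, adjusted p = 0.0681), Junb (1.29 ± 0.39, adjusted p = 0.148) and Adam19 (0.99 ± 0.33, adjusted p = 0.173) were not called in limma. Their unadjusted p was under 0.05. Smad7, these collagens, Nox4, Junb and Adam19 are named after their values were seen.

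**Figure D4:**
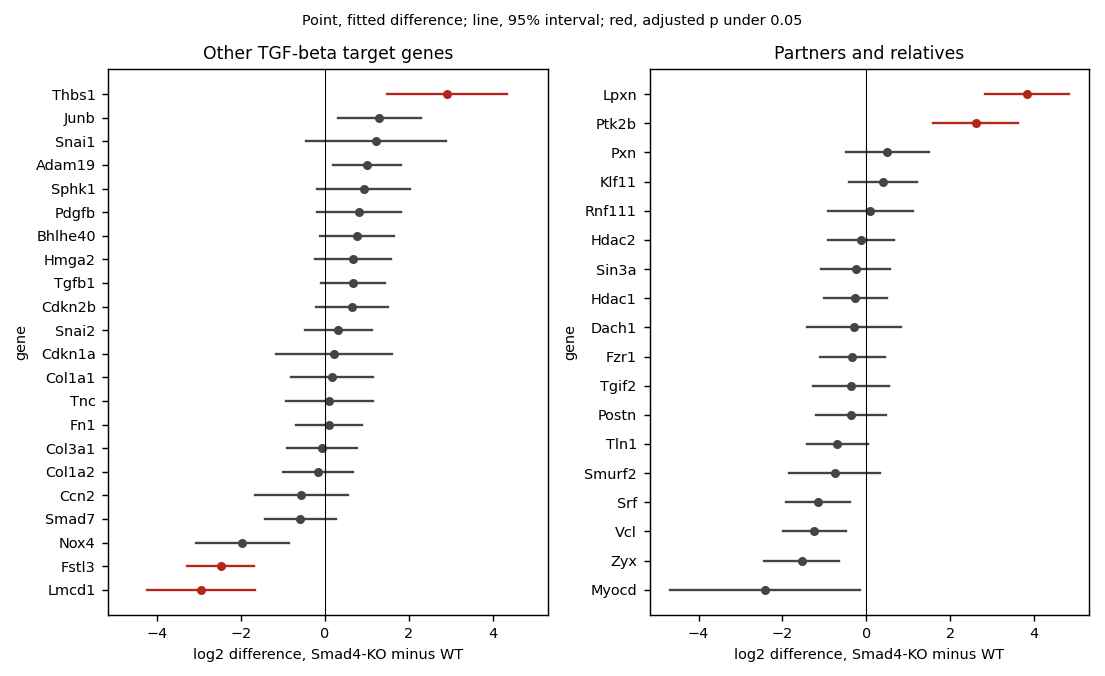
Log2 difference, Smad4-KO minus WT (horizontal axis), of the other TGF-beta target genes (left) and of focal adhesion partners, Ski and SnoN partners and relatives of the 9 genes (right), 1 gene per row. Points are fitted differences, lines 95% intervals, and red marks an adjusted p under 0.05 (Thbs1, Fstl3 and Lmcd1 on the left, Lpxn and Ptk2b on the right).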

How the data were processed

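Affymetrix arrays measured RNA of whole aortas, 2 per genotype. What the authors deposited is a linear intensity per probe set. Expression Console (Affymetrix) and RMA are named by the submitters' processing notes, but the values have the form of MAS5: they are linear, arrays differ in distribution, and all share a 2%-trimmed mean of 500. Detection calls, the build and the array files were not used here. The arrays of a genotype are labelled as biological replicates.

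Of 45101 probe sets, 64 are controls, 34945 are paired with exactly 1 symbol, 932 with several and 9160 with none; the last 2 kinds were left out. Symbols came from the platform annotation and were checked through gene identifiers (0 updated). Some genes of the comparison lists are not reported here. Values were taken to log2 with no other scaling. Genes, each by its brightest probe set, and probe sets under the 25th percentile of mean log2 signal (5.64 for genes, 5.25 for probe sets) were left out. Genotypes were compared with limma 3.58.1 in R 4.3.3 (lmFit, eBayes, two-sided, Benjamini-Hochberg over all features), after a check on simulated data. That check changed 50 genes at each size. It recovered 0% of log2 changes of 1, 2% of 2, 54% of 3 and 92% of 4. With 74 calls in that check against 861 in the gene fit, these shares do not carry over exactly. Lists are described by counts and medians. Tables and figures used Python 3.11.15, pandas 2.3.3, numpy 2.4.6 and matplotlib 3.10.9.

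The members, lists and tests were chosen with earlier results of these data known. The rule for named genes takes the 9 members, Smad4, each list's genes past the threshold (or, with none, its 2 of lowest p) and the 3 genes nearest to a called member. It also names Vwf, Pi16, Fbln1, Cidea and Ms4a1, none of which passed with genotype as the only term and all 4 arrays. Alternatives were a replicate block, the other pairing as a block, quantile normalization, cyclic loess, median centring, a floor of 64, no filter, a filter at the 50th percentile, eBayes with trend and robust, an adjusted p of 0.10, the mean of probe sets, and leaving out each array. With 1 array left out, the lone array is assumed to vary like the other genotype.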

Additional observations from a re-analysis of the deposited data

How the results depend on the processing

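Of the 9 genes, Ski, Pmepa1, Ldlrad4, Klf10, Tgif1, Bambi and Tgfb1i1 kept their direction under each of the 14 or 15 alternatives that gave a value. Many of these are no check on direction. The blocks, the other filters, trend and robust and the adjusted p of 0.10 leave each difference as it was. The mean of probe sets does so for a gene with 1 probe set. Where the genotypes do not overlap, leaving out 1 array cannot turn the sign. Tgfb1i1 lost its call with the replicate block (-1.48, adjusted p = 0.0566), the block for the other pairing (-1.48, adjusted p = 0.0936), quantile normalization (-1.45), cyclic loess (-1.38), no filter (-1.48), the mean of probe sets (-1.48, where other genes' values changed) and each array left out (-1.57 to -1.39), so 0 members were called there, except that with the replicate block 1 was, Tgif1 (1.72, adjusted p = 0.0291). The replicate numbers are not shown to pair the arrays: the differences between replicates correlated at -0.00984 across genes between the genotypes. That value does not show that pairing is absent. Xist and the adipocyte sums split the arrays by replicate number, while the labelling ratios split them the other way. Tgfbi turned positive with quantile normalization (0.052), cyclic loess (0.17) and the mean of probe sets (0.13), and its range with an array left out was -0.66 to 0.63 (0.19 without WT replicate 1). Skil turned positive with the mean of probe sets (0.23) and spanned -0.64 to 0.25 with an array left out. In the probe set fit, Ldlrad4 1447662_x_at turned negative with quantile normalization (-0.073), cyclic loess (-0.0083) and median centring (-0.10) and spanned -0.063 to 0.17 with an array left out. Tgfbi 1437463_x_at turned negative with median centring (-0.042) and spanned -0.47 to 0.69 with an array left out, 1448123_s_at spanned -0.33 to 0.70 and 1415871_at -0.066 to 0.55. Fbln1 turned with the mean of probe sets (-0.031) and spanned -0.16 to 0.50 with an array left out, and Ms4a1 spanned -0.21 to 3.04. Among the markers, the replicate block called 2 adipocyte genes (Ucp1, adjusted p = 0.000572, and Cidea, 0.00702) and 1 lymphocyte gene (Cd3g, 0.0201), where 0 were called without it, and Ms4a1 passed without Smad4-KO replicate 2 (adjusted p = 0.0363). At an adjusted p of 0.10, 1 member probe set was called, Pmepa1 1452295_at.

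The count of 861 genes called was 1321 with the replicate block, 1403 at an adjusted p of 0.10 and 518 with the mean of probe sets. It was 0 in limma with the other pairing as a block (2658 at an unadjusted p under 0.05) and with no filter (2788), and 0 to 808 with an array left out (0 without WT replicate 2, with 1791 at an unadjusted p under 0.05, and 270 without WT replicate 1). The count of 205 probe sets was 577 with the floor of 64, 601 with the filter at the 50th percentile, 586 with trend and robust and 956 at an adjusted p of 0.10. It was 0 in limma with the other pairing as a block (3634 at an unadjusted p under 0.05), quantile normalization (3647) and no filter (4090), and 0 to 139 with an array left out. The causes were not tested. No detection calls were used, so signals of the dim Tgif1, Ldlrad4 and 1422054_a_at probe sets cannot be set against background.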
